A study of Mus musculus with 8 samples.

Results

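Genes that brake or start the G1 phase were examined in the H3K56ac landscape of mouse muscle stem cells (MuSCs). They were 6 inhibitors of cyclin-dependent kinases (CDKs), namely Cdkn1a, Cdkn1b, Cdkn1c, Cdkn2a, Cdkn2b and Cdkn2c, the 3 D cyclins Ccnd1, Ccnd2 and Ccnd3, and Rb1. A window was drawn around each gene from its GENCODE annotation with 20 kb on either side, and every H3K56ac peak of the merged list that overlapped a window was taken. The 10 windows held 83 of the 105600 peaks, of which 38 lay at the CDK inhibitors, 35 at the D cyclins and 10 at Rb1.

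The study profiled freshly isolated MuSCs, sorted by FACS from C57BL/6 mice, by ChIP-seq with an antibody against H3K56ac. There were 8 libraries in 4 groups of 2 replicates each, with H3K56ac and input libraries from Control mice, labelled as wild type, and from Sirt6mKO mice (Pax7-ICNCre pos, Sirt6 fl/fl). In Sirt6mKO mice a constitutively active Cre recombinase expressed from Pax7 removes Sirt6, a deacetylase of H3K56ac, throughout the skeletal muscle lineage and not in MuSCs alone. For other assays the study describes its controls as Sirt6 fl/fl mice without Cre. The mice of its MuSC chromatin analyses were adult males. The analyzed list gives 1 set of intervals for the merged peaks, with no value per library, so Sirt6mKO and Control could not be compared and no value below carries a replicate error. The study states the read numbers of its libraries, but the list does not tie any interval to reads. An interval may come from Control cells, Sirt6mKO cells or both, and its width is that of the merged interval, not an amount of acetylation. For wild-type MuSCs the study reports far fewer H3K56ac peaks than the list has intervals. The windows below therefore cannot be read as the H3K56ac landscape of Control MuSCs alone. The study reports a global increase in the number of H3K56ac peaks in Sirt6mKO MuSCs. It also describes peaks after loss of Sirt6 as broader than those typical of H3K4me3 and H3K27ac. Which genotype the wide intervals below come from was not tested and cannot be told from the list.

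The cyclins D1, D2 and D3 bind and activate CDK4 and CDK6, which phosphorylate the retinoblastoma protein encoded by Rb1 and thereby release E2F transcription factors for entry into S phase. The INK4 inhibitors (Cdkn2a, Cdkn2b, Cdkn2c) bind CDK4 and CDK6, whereas the Cip/Kip inhibitors (Cdkn1a, Cdkn1b, Cdkn1c) bind cyclin-CDK complexes more broadly. MuSCs rest in quiescence in uninjured muscle, enter the cell cycle after injury, and leave it again when they differentiate. H3K56ac is the acetylation of a lysine in the core of histone H3 and has been described at promoters and enhancers of active genes.

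The marker genes of MuSCs carried wide peaks in the list. All 5 of them (Pax7, Myf5, Calcr, Itga7 and Cdh15) had a promoter peak, meaning a peak within 3 kb of an annotated transcription start site (TSS), and the widest promoter peaks of the 5 genes measured 7972 to 30239 bp. None of 3 blood markers (Ptprc, Cd3e and Adgre1) had one. A promoter peak was also found at 2 of 3 endothelial markers (Pecam1 and Kdr, not Cdh5), at 2 of 3 fibro-adipogenic markers (Pdgfra and Dpt, not Ly6a) and at all 3 myofibre markers, where widths were 854 to 1352 bp. Dpt, a matrix gene of fibroblasts, had a promoter peak of 9775 bp. Peaks covered 60.1% of the Dpt window and 21.7% of the Pecam1 window, both within the range of the MuSC markers, 19.8% to 77.1%. The remaining markers of other cells were at 13.6% or below. The sort selected cells without Sca1, CD45 and CD31, which are encoded by Ly6a, Ptprc and Pecam1. By the study's own reanalysis the sorted cells were only partly pure, with a sizable minority not counted as MuSCs. What part other cell types had in the peaks at the cell cycle genes was not tested.

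In the set of RefSeq promoter sequences used here (GRCm38.p6, the assembly of mm10), 6 of the 10 members were present. Cdkn1c, Ccnd1, Ccnd2 and Rb1 were not in the set. There were 10 promoters, which run from 250 bases before to 50 bases from the TSS onward. The 7 shown here include both promoters of Cdkn1a and of Cdkn2a, because at each gene 1 TSS lay in a peak and 1 lay outside. They also include 3 promoters that lay wholly inside wide peaks. Sequences are written 5′ to 3′ on the strand of the gene, and capitals mark bases inside a merged H3K56ac peak. The lines give the upstream TSS of Cdkn1a (chr17:29090729-29091028, plus strand), its main TSS (chr17:29093519-29093818, plus strand), the TSS of the Cdkn2a transcript that encodes p19Arf (chr4:89294570-89294869, minus strand), the TSS of the Cdkn2a transcript that encodes p16Ink4a (chr4:89282143-89282442, minus strand), Cdkn1b (chr6:134920151-134920450, plus strand), the downstream TSS of Cdkn2c (chr4:109665323-109665622, minus strand) and the first TSS of Ccnd3 (chr17:47504801-47505100, plus strand).
Cdkn1a upstream: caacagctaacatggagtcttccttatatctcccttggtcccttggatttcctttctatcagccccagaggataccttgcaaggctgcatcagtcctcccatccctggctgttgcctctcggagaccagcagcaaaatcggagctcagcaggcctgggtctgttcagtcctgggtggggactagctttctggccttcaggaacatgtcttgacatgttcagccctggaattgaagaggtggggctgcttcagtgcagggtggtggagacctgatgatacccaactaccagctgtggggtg
Cdkn1a main: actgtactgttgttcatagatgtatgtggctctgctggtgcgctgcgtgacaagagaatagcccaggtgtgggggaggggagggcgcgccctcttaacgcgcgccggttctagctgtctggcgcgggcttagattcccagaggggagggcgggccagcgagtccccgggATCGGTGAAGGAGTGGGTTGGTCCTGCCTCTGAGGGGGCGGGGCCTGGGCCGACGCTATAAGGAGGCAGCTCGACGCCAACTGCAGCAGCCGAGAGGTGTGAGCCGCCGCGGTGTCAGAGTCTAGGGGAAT
Cdkn2a p19Arf: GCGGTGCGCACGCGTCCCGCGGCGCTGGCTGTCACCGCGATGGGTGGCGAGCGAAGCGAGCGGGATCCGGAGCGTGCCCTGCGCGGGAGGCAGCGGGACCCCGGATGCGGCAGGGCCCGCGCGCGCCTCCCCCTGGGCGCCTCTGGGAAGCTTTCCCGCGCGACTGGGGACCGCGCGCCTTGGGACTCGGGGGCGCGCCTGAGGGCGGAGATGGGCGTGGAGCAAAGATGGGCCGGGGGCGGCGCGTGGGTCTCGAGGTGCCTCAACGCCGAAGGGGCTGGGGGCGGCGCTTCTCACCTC
Cdkn2a p16Ink4a: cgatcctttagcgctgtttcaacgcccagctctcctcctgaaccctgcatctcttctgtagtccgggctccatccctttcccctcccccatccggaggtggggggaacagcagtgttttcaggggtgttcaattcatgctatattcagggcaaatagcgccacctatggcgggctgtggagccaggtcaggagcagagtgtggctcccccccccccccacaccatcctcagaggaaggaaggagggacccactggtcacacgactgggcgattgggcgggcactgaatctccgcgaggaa
Cdkn1b: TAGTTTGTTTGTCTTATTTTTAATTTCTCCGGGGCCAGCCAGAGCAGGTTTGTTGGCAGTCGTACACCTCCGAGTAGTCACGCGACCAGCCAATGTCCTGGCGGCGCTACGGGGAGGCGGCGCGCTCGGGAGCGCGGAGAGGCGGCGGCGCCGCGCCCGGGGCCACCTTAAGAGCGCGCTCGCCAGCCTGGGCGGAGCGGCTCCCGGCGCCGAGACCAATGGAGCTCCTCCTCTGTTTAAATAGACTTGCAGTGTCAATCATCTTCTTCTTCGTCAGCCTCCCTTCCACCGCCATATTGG
Cdkn2c downstream: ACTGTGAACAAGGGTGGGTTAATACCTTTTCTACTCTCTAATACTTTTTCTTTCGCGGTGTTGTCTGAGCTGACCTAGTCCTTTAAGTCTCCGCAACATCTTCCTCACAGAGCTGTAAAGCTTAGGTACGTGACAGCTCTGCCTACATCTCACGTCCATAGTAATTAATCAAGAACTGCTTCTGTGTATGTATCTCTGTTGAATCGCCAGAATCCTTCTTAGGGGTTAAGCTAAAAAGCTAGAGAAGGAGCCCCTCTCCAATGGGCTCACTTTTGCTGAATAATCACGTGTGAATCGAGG
Ccnd3 first: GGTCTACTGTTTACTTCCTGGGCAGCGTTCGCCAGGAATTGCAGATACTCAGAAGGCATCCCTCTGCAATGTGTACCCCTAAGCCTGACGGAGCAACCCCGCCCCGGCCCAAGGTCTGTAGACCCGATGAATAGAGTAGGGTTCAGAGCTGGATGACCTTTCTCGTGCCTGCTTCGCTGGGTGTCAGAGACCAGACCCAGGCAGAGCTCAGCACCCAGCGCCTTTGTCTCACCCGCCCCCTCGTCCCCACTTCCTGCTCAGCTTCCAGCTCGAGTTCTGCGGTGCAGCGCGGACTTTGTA

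All 10 members had a promoter peak and all 10 had a peak over at least 1 TSS. The background was high, since 67.8% of 21938 protein-coding genes had a promoter peak and 62.1% had a peak over a TSS. A promoter peak of at least 5 kb was found at 5 members, namely Cdkn1b, Cdkn2c, Ccnd1, Ccnd3 and Rb1, against 16.5% of all protein-coding genes. The whole gene lay inside 1 peak at 2 members, Cdkn1b and Cdkn2c, against 1.68% of all protein-coding genes. Wide and narrow promoter peaks occurred among both the inhibitors and the D cyclins.

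The share of the window that lay in peaks ranged from 5.41% at Cdkn1c to 59.2% at Ccnd3. Over all protein-coding genes the median was 9.53%, with quartiles of 1.08% and 20.6%. Thus 9 of the 10 members were above the median and 5 were above the third quartile. In descending order the covered share was 59.2% for Ccnd3, 51.5% for Cdkn2c, 45.8% for Cdkn1b, 38.4% for Ccnd1, 21.0% for Cdkn1a, 16.9% for Cdkn2b, 12.6% for Cdkn2a, 12.5% for Rb1, 9.95% for Ccnd2 and 5.41% for Cdkn1c. The 5 genes above the third quartile were 3 inhibitors and 2 D cyclins, with Cdkn1a just past it. Since there are no replicate values, it is not known which neighbors in this order differ beyond the error of the assay.

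**Figure D1:**
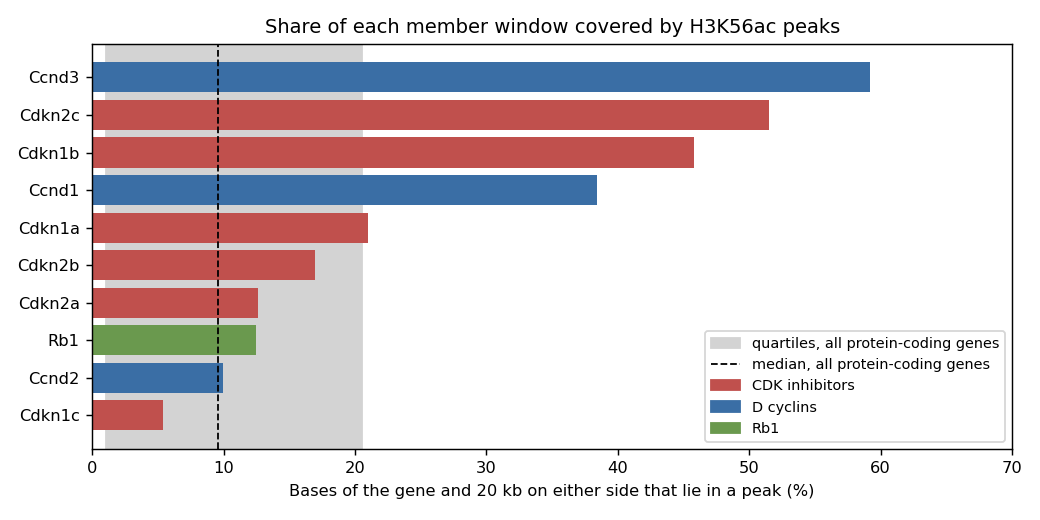
Bars give, for each of the 10 members, the percent of bases of the gene and 20 kb on either side that lie in a merged H3K56ac peak, colored by class. The dashed line is the median of 21938 protein-coding genes (9.53%) and the gray band spans their quartiles; Cdkn1c alone falls below the median, and the bars of Ccnd3, Cdkn2c, Cdkn1b and Ccnd1 extend well past the band.

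By class, the median covered share was 18.97% for the CDK inhibitors (range 5.41% to 51.5%), 38.4% for the D cyclins (range 9.95% to 59.2%) and 12.5% for Rb1. The ranges of the inhibitors and the D cyclins overlapped, and Rb1 lay within both. The median number of peaks per window was 6.5 for the inhibitors, 6 for the D cyclins and 10 for Rb1, whose window is the longest, and the median of all protein-coding genes was 4. The members are single genes and not replicates of a class, so no test was run between the classes. Ccnd3 alone held 41.3% of all covered bases in the member windows. Without it, the pooled windows of Ccnd1 and Ccnd2 were covered by 22.1%, against 24.9% for the pooled inhibitor windows. By the median of single windows the order was the other way, with 24.2% for Ccnd1 and Ccnd2 and 18.97% for the inhibitors.

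The position of the peaks was then compared. Of the 38 peaks at the inhibitors, 13 were within 3 kb of a member TSS, 16 were near the TSS of another annotated gene only and 9 were near no TSS. Of the 35 peaks at the D cyclins, 8 were near their own TSSs, 7 were near that of another gene only and 20 were near none, and 19 of these 20 were at Ccnd3. Without Ccnd3, the 11 peaks at the D cyclins were divided into 6, 4 and 1 in the same order, so the peaks near no TSS came mostly from a single gene. The same division over all peaks in the list is not given here, so these counts cannot be called high or low. Peaks of at least 5 kb numbered 2 at the inhibitors, 10 at the D cyclins and 2 at Rb1, together 16.9% of the member peaks compared with 6.00% of all peaks in the list. Of these 14 wide peaks, 8 were at Ccnd3, and the other members had 6 among 59 peaks.

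**Figure D2:**
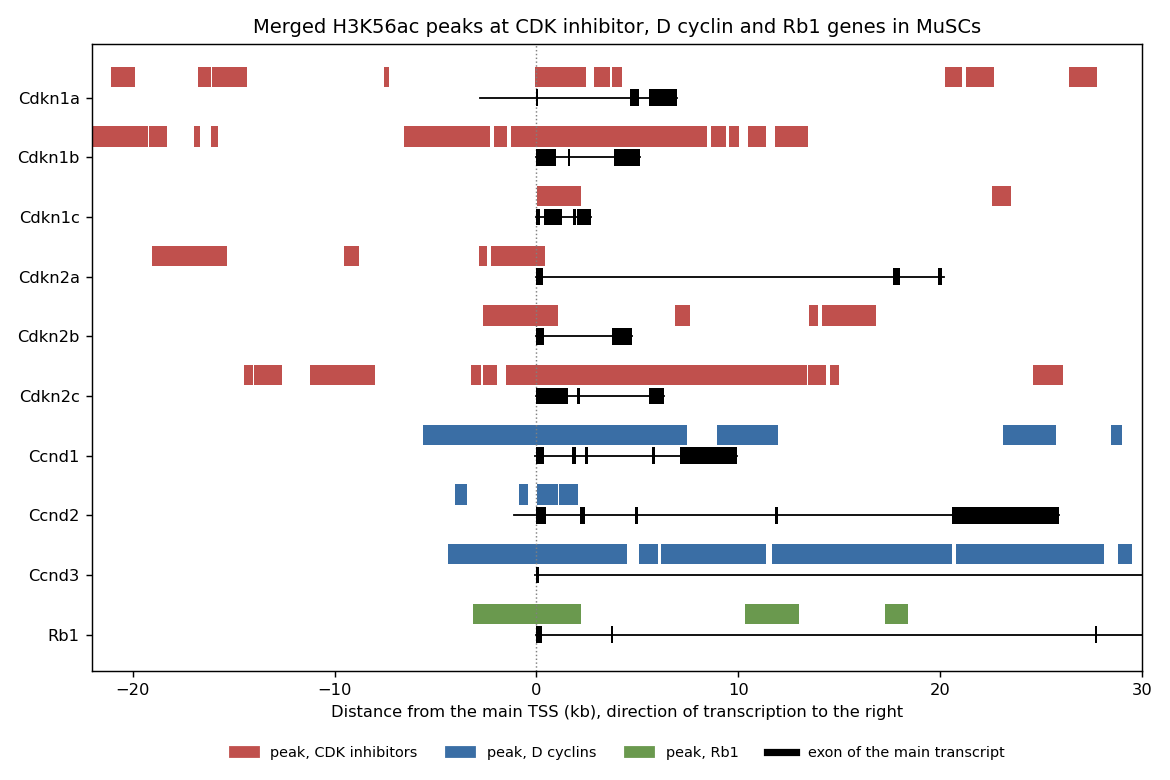
Each row shows 1 member, drawn so that transcription runs to the right, with the distance from the main TSS in kb on the horizontal axis. Colored blocks are merged H3K56ac peaks, black boxes are exons of the main transcript and the thin line is the gene; single peaks cover all of Cdkn1b and Cdkn2c, while most of Cdkn2a downstream of its first exon has no peak.

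Among the Cip/Kip inhibitors, Cdkn1b had the largest covered share with 20 kb on either side, whereas with 50 kb it was 28.1% at Cdkn1b and 31.0% at Cdkn1a. Cdkn1b (ENSMUSG00000003031.14, chr6:134920401-134925513, plus strand) encodes p27Kip1, an inhibitor that holds cells out of the cycle. The gene is 5.11 kb long, and a single peak of 9707 bp ran from 1251 bp upstream of its TSS to 8455 bp downstream, past the end of the gene. This promoter peak was wider than that of 95.9% of the protein-coding genes that have one. A further 3 peaks on the upstream side reached back to -6.54 kb from the TSS, and peaks less than 1 kb apart joined into a region of 20004 bp. The far upstream end of the window held a peak of 4596 bp over the TSS of Gpr19, a G protein-coupled receptor gene. Downstream, a peak of 715 bp lay over a TSS of Lockd, a noncoding RNA gene that was chosen for mention after its value was seen.

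The peaks at the main TSS of Cdkn1a lay within the gene and hardly reached upstream. Cdkn1a (ENSMUSG00000023067.14, chr17:29090976-29100727, plus strand) encodes p21, which is induced by p53 and during the cell cycle exit of myoblasts. The peak over its main TSS measured 2556 bp, which is narrower than the median promoter peak of 3430 bp, and it began 81 bp upstream of the TSS and extended 2474 bp downstream. With 2 further peaks of 757 and 527 bp, 80.8% of the first intron was covered, and the second intron and the exons after the first held no peak. The narrowest of the 3 covered the TSS of a shorter transcript. The upstream protein-coding TSS was 2709 bp from the nearest peak and lay in a stretch of 7.22 kb without peaks. The other 8 peaks of the window measured 246 to 1746 bp and lay farther off, 4 upstream and 4 downstream. From 20 to 5 kb upstream, 18.4% of the bases were covered, against a median of 0% and an upper quartile of 14.8% for all genes. Of the 8 peaks outside the gene, 3 on the upstream side were near the TSSs of Trp53cor1. On the downstream side 3 were near that of Rab44, a neighboring small GTPase gene. Trp53cor1, a long noncoding RNA gene upstream of Cdkn1a, was chosen after its values were seen, and its TSSs lay in peaks of 1213 and 1746 bp.

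Cdkn1c had few peaks, and the main one was confined to the gene. Its covered share was the lowest of the 10 members with 20 kb on either side, but with 5 kb it was 17.1%, above Ccnd2 at 8.24% and Cdkn2a at 10.3%, and with 50 kb it was 6.65%, against 6.52% and 6.30%. Cdkn1c (ENSMUSG00000037664.13, chr7:143458339-143461050, minus strand) encodes p57Kip2 and is imprinted, with expression from the maternal allele. Its single gene peak of 2174 bp covered 80.2% of the gene and touched all 4 exons, but the promoter peak was narrower than that of most genes, with 23.7% of genes that have a promoter peak below it. The peak began 34 bp downstream of the TSS of the main transcript, and the TSS of the second protein-coding transcript lay 20 bp inside it. Upstream of the peak, 21.1 kb held none. The only other peak in the window was one of 952 bp, 22.6 kb downstream of the TSS.

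Among the INK4 inhibitors, Cdkn2c was covered over its whole length and Cdkn2a was not. Cdkn2c (ENSMUSG00000028551.14, chr4:109660876-109667189, minus strand) encodes p18Ink4c. The gene is 6.31 kb long, and 1 peak of 14935 bp covered it from 1524 bp upstream of the main TSS to 13.4 kb downstream. It was the widest peak of all members and wider than the promoter peak of 98.8% of genes that have one. Both annotated TSSs lay inside it, as did a TSS of the neighboring noncoding gene 9630013D21Rik, which was named after its value was seen. The next large peak upstream, of 3242 bp, lay over the TSS of Faf1, which encodes an adaptor of protein degradation.

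Cdkn2a (ENSMUSG00000044303.6, chr4:89274471-89294653, minus strand) has separate promoters for p19Arf, which stabilizes p53, and for p16Ink4a, which inhibits CDK4 and CDK6. The TSS of the p19Arf transcript was inside a peak of 2704 bp that reached 2254 bp upstream and 449 bp downstream. The TSS of the p16Ink4a transcript was in no peak, and the nearest one was 12012 bp away, toward the p19Arf promoter. The p16Ink4a TSS fell in a stretch of 152 kb without peaks, and 2.13% of the gaps between neighboring peaks in the list were as long. Each gap counts once in that share, whatever its length, so it is not the share of positions that lie in such gaps. Just 2.23% of the gene was covered, the lowest share of the 10 members. Absence from the list does not show that the p16Ink4a promoter lacks H3K56ac, because the list holds only intervals that passed the peak caller and no signal outside them.

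Cdkn2b (ENSMUSG00000073802.5, chr4:89306299-89311039, minus strand), which encodes p15Ink4b, lies next to Cdkn2a, and the same 4 peaks fell in both windows. Its TSS was in the widest of them, a peak of 3716 bp that reached 2664 bp upstream and 1051 bp downstream, close to the median width of 3430 bp. The peaks over the TSSs of Cdkn2a and Cdkn2b thus reached farther upstream than downstream, whereas those of Cdkn1a, Cdkn1b, Cdkn1c and Cdkn2c extended mainly into the gene. Between 1 and 5 kb downstream of the main TSS, 0% of the bases were covered at Cdkn2a and 1.28% at Cdkn2b, compared with 30.2% at Cdkn1c, 69.0% at Cdkn1a and 100% at Cdkn1b and Cdkn2c. The median of all protein-coding genes in that interval was 9.83%.

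The 3 D cyclins differed as strongly as the inhibitors did. Ccnd3 (ENSMUSG00000034165.16, chr17:47505051-47599691, plus strand) encodes cyclin D3, which in muscle has been linked to differentiation. Its window of 134.6 kb held 24 peaks, 8 of them of at least 5 kb, and 59.2% of its bases were covered, more than at 99.0% of protein-coding genes. A peak of 8885 bp lay over the first TSS and also over the TSS of Taf8, which encodes a subunit of the general transcription factor TFIID. From this peak onward, 18 peaks followed one another over 74.5 kb with gaps of 20 to 1617 bp, and 89.7% of that stretch was covered. The first intron of the main transcript spans 73.4 kb, and 84.9% of it lay in peaks. After a stretch of 13.1 kb with no peak came a peak of only 190 bp and, 3110 bp farther on, a peak of 7356 bp that covered the TSSs of the shorter transcripts and exons 3 to 7 in whole or in part. All 19 distinct TSSs of Ccnd3 were inside peaks.

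Ccnd1 carried an almost continuous block of peaks over its promoter and most of the gene. Ccnd1 (ENSMUSG00000070348.5, chr7:144929931-144939925, minus strand) encodes cyclin D1, which responds to growth factors. A peak of 7559 bp covered the TSS and ran 7456 bp into the gene, and a second peak of 5496 bp began 8 bp beyond its upstream end. Joined, they formed a region of 13.1 kb that began at -5.61 kb from the TSS. Another peak of 2991 bp lay over the 3′ end of the gene, so that 85.0% of the gene was covered. All exons and introns were covered in full except exon 5, the last, at 47.1%. A peak of 2612 bp over the TSS of the neighboring gene LTO1 lay 23.1 kb downstream of the Ccnd1 TSS.

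When the widest promoter peak of each member was taken, that of Ccnd2 was the narrowest. Ccnd2 (ENSMUSG00000000184.12, chr6:127125162-127152193, minus strand) encodes cyclin D2. Its widest promoter peak measured 1061 bp, and only 8.01% of genes with a promoter peak had a narrower one. The order depended on how intervals were split. With peaks less than 1 kb apart joined, the promoter region of Ccnd2 was 2886 bp, wider than the 2174 bp of Cdkn1c. The TSS of the main transcript fell between peaks, 25 bp from the peak of 1061 bp on its downstream side and 392 bp from a peak of 458 bp upstream, whereas 3 other TSSs lay inside the downstream peak. Peaks ended 2.04 kb into the gene, and the 37.2 kb that followed held none. The widest peak in the window was not at Ccnd2 itself, but was a peak of 3190 bp over the TSS of Tigar, a regulator of glycolysis. In all, 9.95% of the window was covered, close to the median of 9.53% for all genes.

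**Figure D3:**
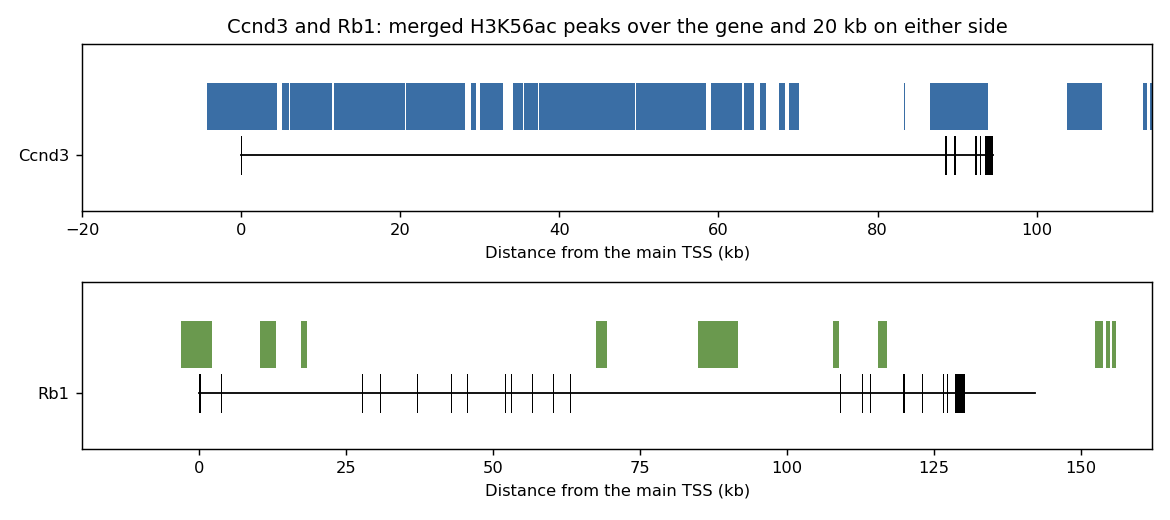
Merged H3K56ac peaks (blocks) over Ccnd3, top, and Rb1, bottom, each with 20 kb on either side, against the distance from the main TSS in kb; black bars are exons of the main transcript. At Ccnd3 the 18 peaks over the promoter and first intron leave only narrow gaps, whereas at Rb1 the peaks are separate and most exons have none.

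Rb1 (ENSMUSG00000022105.6, chr14:73183673-73325822, minus strand), the longest of the 10 genes at 142.2 kb, had a wide peak at its promoter and few in its body. The peak over the TSS of the full-length transcript measured 5369 bp and reached 3150 bp upstream and 2218 bp downstream. Only exon 1 of 27 exons touched a peak, and 4 of 26 introns did. Intron 17, of 45.7 kb, held 3 peaks and was covered by 20.8%. The widest of these, 6780 bp, lay over the TSS of Lpar6, a receptor gene for lysophosphatidic acid that sits within the intron, and over the TSS of a short Rb1 transcript, so the widest promoter peak of Rb1 by annotation is the one it shares with Lpar6. A stretch of 49.2 kb without peaks lay between the peaks of intron 2 and those of intron 17. The gene body was covered by 11.9%, and the median gene by 7.82%.

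Relative to the main TSS, coverage was highest close to it in both classes. Within 1 kb of the TSS, the median share was 86.2% for the inhibitors and 99.6% for the D cyclins, against 74.4% for all protein-coding genes. From 5 to 1 kb upstream it was 41.6% for the inhibitors (0% at Cdkn1a and Cdkn1c, 90.1% at Cdkn1b) and 84.3% for the D cyclins, with 15.2% at Ccnd2. In this interval the median of all genes was 0% and the third quartile 29.1%. Peaks were present there at 8 of the 10 members and at 49.9% of all protein-coding genes. From 5 to 20 kb downstream the D cyclins ranged from 0% at Ccnd2 to 96.7% at Ccnd3.

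**Figure D4:**
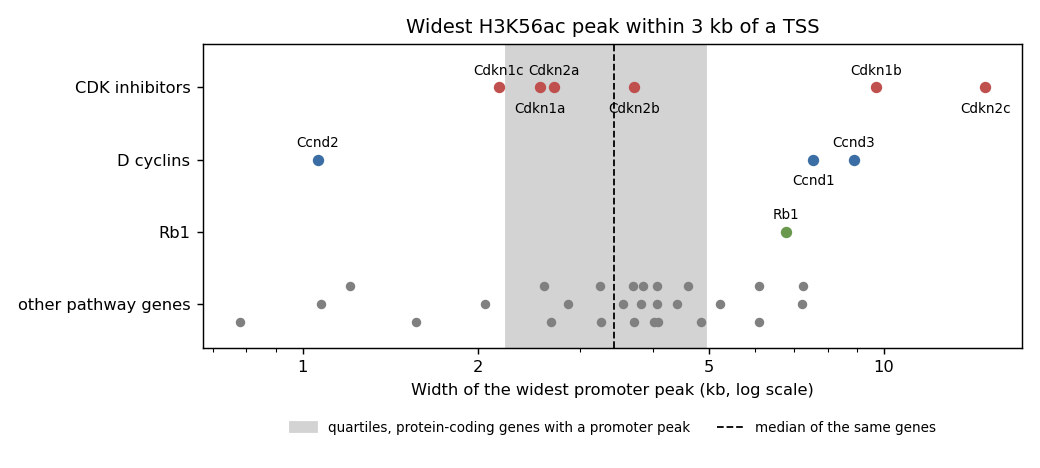
Points give the width of the widest peak within 3 kb of a TSS, in kb on a log scale, for the 10 members by class and for 27 other cell cycle genes in gray, whose vertical offset has no meaning. The dashed line is the median over all protein-coding genes that have such a peak (3430 bp) and the band their quartiles; Cdkn2c (14935 bp) and Cdkn1b (9707 bp) lie farthest right, Ccnd2 (1061 bp) lies to the left of the band.

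The other genes of the pathway also had promoter peaks, with a median width near that of all genes. All 27 genes of a list of CDKs, cyclins, pocket proteins, E2F factors and regulators had a promoter peak, against 67.8% of all protein-coding genes. Their median widest peak was 3818 bp (781 to 7255 bp), against 3430 bp over all protein-coding genes with a promoter peak. A promoter peak of at least 5 kb was found at 5 of the 27, against 16.5% of all protein-coding genes. The widest were at Skp2 (7255 bp), whose product directs p27Kip1 to degradation, at Cdkn2d (7229 bp), which encodes the INK4 inhibitor p19Ink4d, and at Ccne1 (6090 bp), the cyclin E1 gene. Cdkn2d, like Cdkn1b and Cdkn2c, lay wholly inside its peak. The kinase partners of the D cyclins had promoter peaks near the median, with 3561 bp at Cdk4 and 4022 bp at Cdk6, as did the Rb1 relatives, with 3257 bp at Rbl1 and 4073 bp at Rbl2. Covered shares of their windows were 40.3% for Cdk4, 6.98% for Cdk6, 10.9% for Rbl1 and 8.22% for Rbl2.

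Base composition was compared between promoters in peaks and promoters outside them. The p19Arf promoter of Cdkn2a, wholly in a peak, had a GC share of 77.0% and 45 CpG dinucleotides, with a ratio of observed to expected CpG of 1.04. The p16Ink4a promoter, outside peaks, had 60.3% GC, 12 CpG dinucleotides and a ratio of 0.442. At Cdkn1a the upstream promoter held only 2 CpG dinucleotides (ratio 0.0892), and the main promoter held 23 (ratio 0.786), with 131 of its 300 bases in the peak. Over all 32851 promoters of the table, the median GC share was 60.3% in those that overlapped a peak and 47.3% in those outside, with CpG ratios of 0.731 and 0.204. The downstream promoter of Cdkn2c lay inside the peak of 14935 bp with a GC share of only 44.0%. The share of all promoters that overlapped a peak was 49.2%.

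A set of 6 motifs was searched on both strands of the 10 promoters, with positions counted from the TSS as 0. The Sp1 motif GGGCGG was in 8 of the 10 promoters, in 35.7% of all promoters and in 59.6% of the promoters that overlap a peak. Of the 10 promoters, 8 overlap a peak, but they are not the same 8. The p16Ink4a promoter has the motif outside peaks, and the downstream promoter of Cdkn2c lies in a peak without it. The p53 half-site, searched by its consensus, occurred only in the upstream promoter of Cdkn1a, at -73 (GGACTAGCTT) and -51 (GAACATGTCT), and in 8.36% of all promoters. Neither of these matches lay in a peak, and the same promoter held an E-box (CAGCTG) at 37, a motif found in 16.3% of all promoters. The E2F motif TTTCCCGC, in 1.07% of all promoters and 1.86% of those that overlap a peak, occurred at -99 of the p19Arf promoter inside its peak. The FoxO motif GTAAACA, in 3.65% of all promoters and 2.61% of those that overlap a peak, was found on the opposite strand at -243 of the first Ccnd3 promoter, inside a peak. No AP-1 motif (TGANTCA) was found, a motif in 7.81% of all promoters. These are matches of letters and do not show binding.

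The peaks themselves had a slightly higher GC share than the list as a whole, with a median of 47.6% for the 83 member peaks and 45.8% for all peaks. The 23 peaks at member promoters had a median of 49.9% and a CpG ratio of 0.476, and the 34 peaks away from every promoter had 46.6% and 0.233. The CpG ratio of all peaks was 0.214 in the median. Many member peaks were close neighbors, since 58.1% of the 74 gaps between them were under 1 kb compared with 44.5% of all gaps in the list. These shares are not alike in kind. Member gaps were counted only between peaks of the same window, which leaves out long gaps past its edges. Most gaps at Ccnd3 and Cdkn1b were under 1 kb. In 4 cases the gap was at most 10 bp, at Cdkn1b, Ccnd1 and Ccnd3, so the number of peaks at these genes depends on where intervals were split.

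Of the 52 distinct TSSs annotated for the 10 members, 41 lay in a peak and 11 did not, while 53.2% of all distinct TSSs of protein-coding genes lay in a peak. Ccnd3 contributed 19 of the 41, all under only 2 peaks, and the other members had 22 of 33 in a peak. The TSSs outside peaks were 2 at Cdkn1a, 1 at Cdkn1c, 1 at Cdkn2a, 4 at Ccnd2 and 3 at Rb1. At Cdkn1c and for the main TSS of Ccnd2 the peak was within 34 bp, and the most upstream TSS of Ccnd2 was 284 bp from a peak. The p16Ink4a TSS of Cdkn2a, the 2 TSSs at Cdkn1a and the 3 at Rb1 were kilobases away from any peak. So were the remaining TSSs of Ccnd2, at 2336 and 9872 bp.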

How the data were processed

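H3K56ac and input libraries were prepared from MuSCs of Control and Sirt6mKO mice (8 libraries). According to the study's methods, reads were trimmed and aligned to mm10 with bowtie keeping unique alignments, duplicates were removed with Picard, peaks were called with MACS2, blacklisted regions were removed and overlapping peaks were merged. The labels name mm10, Bowtie, SAMtools, FastQC and deepTools without versions. The authors deposited the merged peaks as intervals only. Names are blank, the score is 0 in every row, and 0 columns hold values per library, so no counting interval can be given for a peak. Read numbers per library are stated by the study and were not used here. Only chromosome, start and end were used, with starts read as counted from 0 and printed as counted from 1. Merging widens peaks and fuses neighbors, and the requirement for unique alignments lowers the chance of a peak in repeated sequence. Which libraries entered the merge is not given in the sources used here.

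All intervals lay within the chromosomes of GRCm38. Genes and TSSs were taken from GENCODE vM21, and promoter sequences from RefSeq. The main TSS is the most upstream one among protein-coding transcripts of support level 1. A peak was assigned to a window or promoter by an overlap of at least 1 bp, and each measure was set beside the same measure over all protein-coding genes. Samples were grouped by their labels, but no comparison between groups and no statistical test was possible, and single genes were not treated as replicates. The genes named are the 10 members, protein-coding genes with a TSS in a member window, Cdk4, Cdk6, Cdkn2d, Rbl1, Rbl2 and the 3 pathway genes with the widest promoter peak. Cell type markers are named for the check of the label, and the noncoding genes Lockd, Trp53cor1 and 9630013D21Rik were added after their values were seen. Members and gene lists were chosen with earlier results of these data known. Alternatives were windows of 5, 50 or 0 kb on either side, peaks of at least 500 bp, peaks less than 1 kb apart joined, assignment by peak midpoint, promoters of 1 kb and TSSs of protein-coding transcripts only. The overlap functions were tested on simulated data. Analyses used Python 3.11.15 with pandas 2.3.3, numpy 2.4.6 and matplotlib 3.10.9.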

Additional observations from a re-analysis of the deposited data

How the results depend on the processing

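Of 55 alternative values for 11 results, 42 stayed within 1.5 times the reported value, 6 moved higher and 7 moved lower. The number of peaks in the member windows was 83, and was 51 with 5 kb on either side, 129 with 50 kb, 40 with the gene body alone and 40 with peaks less than 1 kb apart joined. The median number of peaks per inhibitor window moved from 6.5 to 2.5 with 5 kb, 1 with the gene body and 3 after joining, and that of the D cyclins from 6 to 16 with 50 kb and 3 with the gene body. The median covered share of the inhibitors was 59.8% in the gene body, and that of the D cyclins was 71.1% with 5 kb and 74.1% in the gene body. Joining raised the median widest promoter peak of the D cyclins to 13063 bp. The covered share was highest for the D cyclins and lowest for Rb1 in the median under each of these alternatives. Peak midpoints, promoter size and the choice of TSSs do not enter this share, so those settings could not change the order. In the gene body the order rested on Ccnd3, since Ccnd1 and Ccnd2 alone had a median of 47.0%, below the inhibitors. Ccnd3 itself fell from the first place among the members to the fourth with 5 kb and the fifth with the gene body alone. With TSSs of protein-coding transcripts only, the widest promoter peak of Rb1 was 5369 bp. No paired analysis was possible because the deposited intervals have no value for any single library. The same absence leaves the number of peaks, their widths and the stretches without peaks with no measure of error.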
